A study of Mus musculus with 9 samples.

Results

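The Kruppel-like factors (Klf) are zinc-finger transcription factors, and 10 of them were followed here: Klf2, Klf3, Klf4, Klf6, Klf7, Klf9, Klf10, Klf11, Klf12 and Klf13. They were taken by gene symbol from a table of 14912 genes, and all 10 had a row and passed the filter for testing, a normalized count of at least 5 in at least 3 libraries. The table held 4 further Klf symbols, Klf1, Klf5, Klf8 and Klf16, which are described near the end.

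Messenger RNA of sorted mouse CD4+ T cells was measured in 3 groups of 3 libraries each by a modified CEL-Seq protocol, which counts reads near the 3′ end of transcripts. Every group came from the strain B6.Cg-Foxp3tm2(EGFP)Tch/J, hemizygous for a reporter that puts eGFP under Foxp3, the defining transcription factor of regulatory T (Treg) cells. The mTO-iTreg libraries were eGFP+ CD4+ cells sorted on day 5 from co-culture with mouse colorectal tumour organoids, with IL-2 at 20 U/ml together with anti-CD3 and anti-CD28 (1 µg/ml of each antibody), and no TGFβ was listed as added. The TGFβ-iTreg libraries were eGFP+ CD4+ cells sorted on day 5 from culture with TGFβ at 10 ng/ml, IL-2 at 300 U/ml and both antibodies at 1 µg/ml. The day 0 libraries were eGFP- CD4+ T cells from before any culture. IL-2 dose, TGFβ and organoids therefore differ together between the induced groups, and their effects cannot be told apart. Animal age and whether the replicates were separate animals or cultures were not stated, so the p-values measure the spread between these libraries, which may be technical. The library codes of mTO-iTreg have another form than those of TGFβ-iTreg and day 0, so any difference in library handling that this marks cannot be told apart from the co-culture.

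Total counts were 7551177 to 7969853 in mTO-iTreg, 2078223 to 9944952 in TGFβ-iTreg and 2267922 to 5328169 in day 0 libraries, and 1 count was worth 0.494 to 2.69 normalized counts. Foxp3, which the sort marker reports, averaged 62.6 ± 22.7 normalized counts in mTO-iTreg, 16.5 ± 2.78 in TGFβ-iTreg and 3.63 ± 4.58 in day 0 cells (SD, n = 3 each). The induced groups did not differ in Foxp3 at an adjusted p under 0.05 in limma's moderated test (adjusted p = 0.10). All 6 listed Treg markers, Foxp3 among them, were higher in each induced group than on day 0. Between mTO-iTreg and TGFβ-iTreg 2 of the 6 were higher, none lower and 4 not called, where 26.6% of all genes passed. Over 23 other ways of fitting, these counts ran from 2 to 3 higher and from 0 to 2 lower. The 7 measured CD4 T cell markers of 8 listed summed to 17445–20892 normalized counts in mTO-iTreg, 12634–15127 in TGFβ-iTreg and 21357–22974 in day 0 libraries. The 7 measured epithelial markers of 12 listed summed to 45.9–118.9, 137.7–142.4 and 13.7–18.8 normalized counts in mTO-iTreg, TGFβ-iTreg and day 0 libraries, with Cldn4 and Lgr5 at 0 in mTO-iTreg, Krt18 at 0 in TGFβ-iTreg, and Klf5 and Vil1 at 0 on day 0.

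Klf proteins share a carboxy-terminal block of zinc fingers that binds GC boxes and CACCC boxes, and they differ in the amino-terminal part that recruits partners. By those partners they are commonly sorted into activators that bind acetyltransferases, repressors that bind Sin3a, and repressors that bind CtBP. In T cells Klf2 is best known for holding naive cells in quiescence and for driving the genes that let them recirculate, while Klf10 was first described as an early gene induced by TGFβ.

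Promoter windows of 250 bases before the transcription start were available from RefSeq (GRCm38.p6) for 9 of the 10 members. They were searched on both strands for 5 motifs: the GC box GGGCGG, the CACCC box CACCC, the MEF2-type motif (CTA, any 4 bases, then TAG), the forkhead-type motif GTAAACA and the cAMP-response element TGACGTCA. A GC box stood in 7 of the 9 windows and a CACCC box in 6, against 32.7% and 52.0% of the 32851 windows of this length for all transcripts in the table. The MEF2-type motif stood in the window of Klf2 alone and the forkhead-type motif in that of Klf9 alone, against 3.2% and 3.17% of all windows. No member's window held TGACGTCA, which 1.55% of all windows held. The windows of 3 called members are shown 5′ to 3′, those of Klf2 and Klf9 for the motif found in no other member and that of Klf11 for its overlapping GC boxes, each on the plus strand, which is the strand of its gene. For Klf2 (chr8:72318812-72319061) capitals mark GGGCGG and, 118 bases before the start, the MEF2-type motif. For Klf9 (chr19:23140976-23141225) they mark GTAAACA, 100 bases before the start. For Klf11 (chr12:24651121-24651370) they mark GC boxes read on the other strand, of which the first and second overlap.
Klf2: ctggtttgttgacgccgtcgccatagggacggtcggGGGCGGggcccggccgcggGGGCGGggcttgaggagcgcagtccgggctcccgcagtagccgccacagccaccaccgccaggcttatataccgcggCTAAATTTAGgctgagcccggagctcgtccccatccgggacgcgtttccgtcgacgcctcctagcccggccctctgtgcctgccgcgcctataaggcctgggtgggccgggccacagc
Klf9: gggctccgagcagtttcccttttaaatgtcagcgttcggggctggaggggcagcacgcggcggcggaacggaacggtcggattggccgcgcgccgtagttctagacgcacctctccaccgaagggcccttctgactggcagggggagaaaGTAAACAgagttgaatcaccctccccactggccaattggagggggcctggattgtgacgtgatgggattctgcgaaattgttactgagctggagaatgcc
Klf11: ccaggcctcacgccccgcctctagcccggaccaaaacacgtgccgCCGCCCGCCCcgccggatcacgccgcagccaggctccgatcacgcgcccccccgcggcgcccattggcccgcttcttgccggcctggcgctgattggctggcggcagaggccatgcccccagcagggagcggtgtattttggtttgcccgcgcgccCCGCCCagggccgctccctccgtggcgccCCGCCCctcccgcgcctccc
A match here describes letters in the window, and a window with no match shows only that those letters are not in it.

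The family did not move as a block. At an adjusted p under 0.05 in limma's moderated test, 6 of the 10 members differed between mTO-iTreg and day 0 cells: Klf9, Klf10 and Klf11 were higher and Klf2, Klf4 and Klf6 lower. Of all 10983 genes tested, 33.9% passed in that comparison, 19.4% higher and 14.5% lower. Between TGFβ-iTreg and day 0 cells 5 members passed, Klf9 and Klf11 higher and Klf3, Klf4 and Klf6 lower, where 18.6% of all genes passed, 9.78% higher and 8.8% lower. Between mTO-iTreg and TGFβ-iTreg cells 4 members passed, Klf3, Klf7 and Klf10 higher and Klf2 lower, where 26.6% of all genes passed, 14.9% higher and 11.8% lower. Of the calls over all genes in that comparison 55.8% were on the higher side, against 45.4% with TMM scaling, and the 4 members kept their directions under it, with Klf7 no longer called (adjusted p = 0.067). The members' median log2 difference was -0.04 for mTO-iTreg against day 0, -0.56 for TGFβ-iTreg against day 0 and 0.64 for mTO-iTreg against TGFβ-iTreg, beside medians over all genes of 0.09, -0.02 and 0.13. With 10 members these shares are descriptions, and no test of the family as a set was made. In all, 8 members passed in at least 1 comparison, and Klf12 and Klf13 in none. The comparisons share libraries, so they are not independent of each other.

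**Figure D1:**
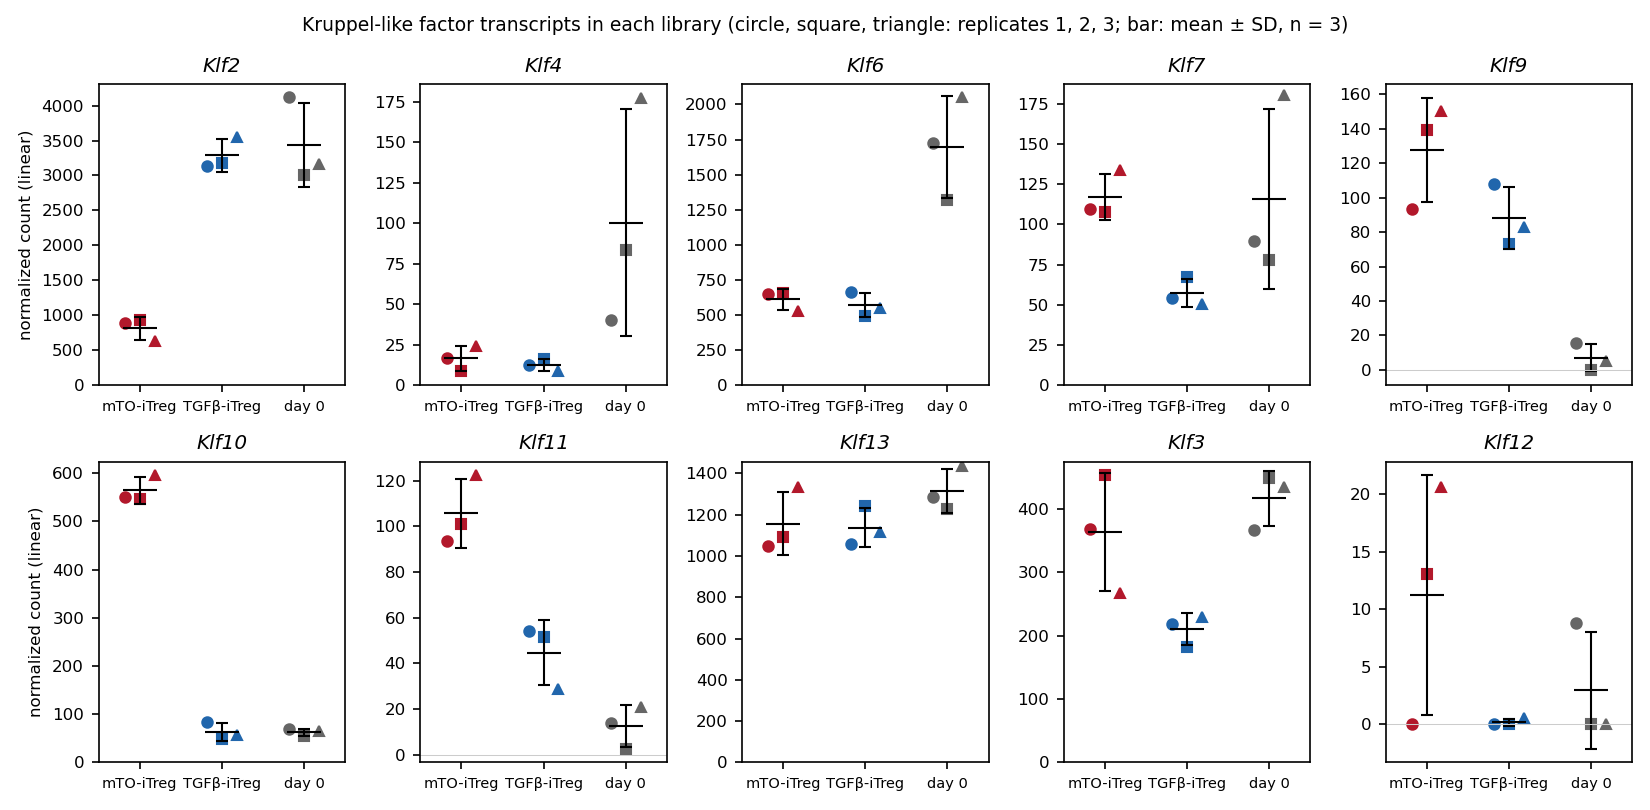
Normalized counts (linear axes) of the 10 members in each library, 1 panel per gene, with mTO-iTreg at the left, TGFβ-iTreg in the middle and day 0 at the right; circles, squares and triangles are replicates 1, 2 and 3, and bars the mean ± SD (n = 3). Klf2 is low in the 3 mTO-iTreg libraries (629 to 934) and Klf10 high in them (545 to 596).

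Among the activators, Klf2 was lower in mTO-iTreg cells than in both other groups. Klf2 (chromosome 8, 72319033 to 72321656, plus strand, GRCm38) had 889, 934 and 629 normalized counts in the mTO-iTreg libraries, 3131, 3177 and 3553 in TGFβ-iTreg and 4126, 3008 and 3167 on day 0. The 3 mTO-iTreg libraries lay below all 6 others, and the TGFβ-iTreg values lay within the range of day 0. Klf2 averaged 817 ± 164 in mTO-iTreg cells, against 3287 ± 231 in TGFβ-iTreg cells and 3434 ± 605 on day 0 (SD, n = 3 each). It was 4.20-fold lower in mTO-iTreg than on day 0 (log2 difference -2.08 ± 0.16 SE, limma adjusted p = 9.6e-07) and 4.02-fold lower than in TGFβ-iTreg (-2.03 ± 0.16, adjusted p = 3e-06). TGFβ-iTreg cells differed from day 0 cells by -0.05 on the log2 scale (95% interval -0.40 to 0.30, adjusted p = 0.87). In sorted bulk samples, fewer cells with a transcript and less transcript per cell cannot be told apart, here and for every gene below.

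Klf6, a widely expressed activator that responds early to stimulation, was lower in both induced groups. Klf6 (chromosome 13, 5861482 to 5870394, plus strand) had 647, 657 and 527 normalized counts in mTO-iTreg, 667, 495 and 551 in TGFβ-iTreg and 1725, 1323 and 2049.8 in day 0 libraries. Every induced library lay below every day 0 library, while the induced groups overlapped each other. The level was 2.78-fold lower in mTO-iTreg than on day 0 (log2 difference -1.46 ± 0.18 SE, limma adjusted p = 3.6e-05) and 2.98-fold lower in TGFβ-iTreg than on day 0 (-1.56 ± 0.18, adjusted p = 6.1e-05). Between the induced groups the difference was 0.10 (95% interval -0.28 to 0.48, adjusted p = 0.71).

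Klf6 belongs to the immediate early genes, which are transcribed within minutes of a signal and also during cell isolation. Of 17 other immediate early genes tested, 9 were lower and 3 higher in mTO-iTreg than on day 0 (median log2 difference -1.19), and 6 were lower and none higher in TGFβ-iTreg than on day 0 (median -0.64), which is 70.6% and 35.3% of the 17, where 33.9% and 18.6% of all genes passed. Fos, an AP-1 subunit, had 231, 269 and 89.0 normalized counts in mTO-iTreg, 61.5, 80.7 and 446 in TGFβ-iTreg and 3500.1, 2599 and 4409.8 in day 0 libraries, and its partner Junb averaged 1392 ± 162, 1529 ± 543 and 7895 ± 1220 in the same groups (SD, n = 3 each). Both were high in all 3 day 0 libraries, as Klf6 was. The immediate early genes that were higher in mTO-iTreg included Fosl2, another AP-1 subunit, at 167 ± 40.4, against 23.0 ± 7.04 in TGFβ-iTreg and 42.9 ± 26.2 on day 0. The part of cell handling in the Klf6 difference was not tested.

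Klf4, an activator that restrains T cell proliferation in mice, was also lower in both induced groups, at low levels. Klf4 (chromosome 4, 55527143 to 55532466, minus strand) had 17.1, 8.68 and 23.9 normalized counts in mTO-iTreg, 12.3, 16.3 and 8.89 in TGFβ-iTreg and 40.4, 83.3 and 177 on day 0. No induced library reached the lowest day 0 library, but the day 0 libraries were spread widely. Klf4 was 6.06-fold lower in mTO-iTreg than on day 0 (log2 difference -2.39 ± 0.60 SE, limma adjusted p = 0.0078) and 8.03-fold lower in TGFβ-iTreg than on day 0 (-2.70 ± 0.60, adjusted p = 0.0073). Without day 0 replicate 3, the highest library, the folds were 3.74 (adjusted p = 0.047) and 4.95 (adjusted p = 0.039). The same library was highest for the class II gene H2-Ab1, which had 229, 208 and 313 normalized counts in mTO-iTreg, 88.5, 76.6 and 33.1 in TGFβ-iTreg and 588, 293 and 2463 on day 0. The 6 measured myeloid or antigen-presenting cell markers of 10 listed summed to 1824–2968 in mTO-iTreg, 203.5–470.7 in TGFβ-iTreg and 787.6–7386 on day 0, with Itgax at 0 in mTO-iTreg. Most of each mTO-iTreg sum was 1 class II gene, H2-Eb1, at 2331, 1410 and 1817. It averaged 78.3 ± 53.5 in TGFβ-iTreg and 835 ± 1000 on day 0. Of the 5 markers tested in mTO-iTreg against day 0, 1 was higher (H2-Eb1) and 2 lower (H2-Ab1 and H2-Aa). That is 60% of the 5, where 33.9% of all genes passed. The part of such cells in the Klf4 difference was not tested.

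Klf7, an activator best known from neurons, had 109.8, 108 and 134 normalized counts in mTO-iTreg, 54.1, 67.1 and 50.4 in TGFβ-iTreg and 89.5, 78.0 and 180.4 on day 0. The mTO-iTreg and TGFβ-iTreg values did not overlap, and day 0 replicate 3 stood above its group. Klf7 was 2.05-fold higher in mTO-iTreg than in TGFβ-iTreg (log2 difference 1.02 ± 0.34 SE, limma adjusted p = 0.037), a call that 12 of 23 other ways of fitting the data ended (adjusted p up to 0.20), among them TMM scaling and leaving out any mTO-iTreg or TGFβ-iTreg library. Against day 0 neither induced group passed, with log2 differences of 0.11 for mTO-iTreg (95% interval -0.61 to 0.83) and -0.92 for TGFβ-iTreg (-1.64 to -0.19, adjusted p = 0.075). Of the 4 activators, then, 3 were lower in mTO-iTreg than on day 0 and none higher, and 2 were lower in TGFβ-iTreg than on day 0 and none higher. That is 75% and 50% of only 4 genes, where 33.9% and 18.6% of all genes passed, and nothing is read from it.

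Among the members that bind Sin3a, Klf9, Klf10 and Klf11 were higher in mTO-iTreg than on day 0 and Klf13 was not called, and Klf10 was also higher in mTO-iTreg than in TGFβ-iTreg. Klf10 (chromosome 15, 38291463 to 38300706, minus strand), also called TGFβ-inducible early gene 1, had 551, 545 and 596 normalized counts in mTO-iTreg, 83.6, 48.2 and 56.8 in TGFβ-iTreg and 68.4, 53.8 and 64.4 on day 0. The 3 mTO-iTreg libraries lay close together and far above the other 6, among which TGFβ-iTreg and day 0 overlapped. Klf10 averaged 564 ± 27.7 in mTO-iTreg cells, against 62.9 ± 18.5 in TGFβ-iTreg cells and 62.2 ± 7.57 on day 0 (SD, n = 3 each). It was 9.07-fold higher in mTO-iTreg than on day 0 (log2 difference 3.17 ± 0.26 SE, limma adjusted p = 1.3e-06) and 8.97-fold higher than in TGFβ-iTreg (3.18 ± 0.26, adjusted p = 3.1e-06). After 5 days with added TGFβ, Klf10 differed from day 0 by -0.02 on the log2 scale (95% interval -0.57 to 0.54, adjusted p = 0.97). The part of other cell types in the Klf10 difference was not tested, and the epithelial marker sums are those given above: 45.9–118.9 in mTO-iTreg, 137.7–142.4 in TGFβ-iTreg and 13.7–18.8 on day 0.

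Klf11, TGFβ-inducible early gene 2, is the nearest relative of Klf10 and had another pattern. Klf11 (chromosome 12, 24651274 to 24662789, plus strand) had 93.4, 101 and 122 normalized counts in mTO-iTreg, 54.1, 51.5 and 28.7 in TGFβ-iTreg and 14.0, 2.69 and 21.1 on day 0. The 3 groups did not overlap, with mTO-iTreg highest, TGFβ-iTreg between and day 0 lowest, where 29 counts stood behind the group's values. Klf11 was 8.38-fold higher in mTO-iTreg than on day 0 (log2 difference 3.31 ± 0.60 SE, limma adjusted p = 0.0008). Without day 0 replicate 3 this was 12.6-fold, and without day 0 replicate 2 it was 6.01-fold. In TGFβ-iTreg Klf11 was 3.55-fold higher than on day 0 (2.04 ± 0.60, adjusted p = 0.03), or 5.35-fold and 2.55-fold without the same libraries in turn. The TGFβ-iTreg call was ended by 8 of 23 other ways of fitting (adjusted p up to 0.17). Among them were leaving out TGFβ-iTreg replicate 1 (adjusted p = 0.093), TGFβ-iTreg replicate 2 (0.094) or day 0 replicate 2 (0.069). Between mTO-iTreg and TGFβ-iTreg the log2 difference was 1.26 (95% interval -0.02 to 2.55, adjusted p = 0.14), and it passed in 4 of the other fits.

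Klf9, a Sin3a-binding member whose transcription responds to glucocorticoid and thyroid hormones, was higher in both induced groups. Klf9 (chromosome 19, 23141226 to 23168134, plus strand) had 93.4, 139.6 and 150.1 normalized counts in mTO-iTreg, 108, 73.2 and 83.0 in TGFβ-iTreg and 15.8, 0 and 5.27 on day 0. All 6 induced libraries lay above all day 0 libraries, in which only 14 counts were seen in all, and the floor of 3 counts in the library at 0 is worth 8.06 normalized counts. Klf9 was 18.2-fold higher in mTO-iTreg than on day 0 (log2 difference 4.74 ± 0.76 SE, limma adjusted p = 0.00035) and 12.6-fold higher in TGFβ-iTreg than on day 0 (4.22 ± 0.76, adjusted p = 0.002). These folds rest on the few day 0 counts: without day 0 replicate 1 they were 48.4 and 33.4, and without day 0 replicate 2 they were 12.1 and 8.37. Between mTO-iTreg and TGFβ-iTreg the log2 difference was 0.52 (95% interval -1.12 to 2.16, adjusted p = 0.65).

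Klf13, which drives the chemokine gene Ccl5 late in T cell activation, passed in no comparison. It had 1046, 1091 and 1333 normalized counts in mTO-iTreg, 1058, 1241 and 1114 in TGFβ-iTreg and 1284, 1228 and 1435 on day 0, and the groups overlapped. Its log2 difference was -0.19 for mTO-iTreg against day 0 (95% interval -0.48 to 0.10), -0.21 for TGFβ-iTreg against day 0 (-0.50 to 0.08) and 0.02 for mTO-iTreg against TGFβ-iTreg (-0.27 to 0.31). Ccl5 itself averaged 29.5 ± 5.20 in mTO-iTreg, 39.0 ± 25.2 in TGFβ-iTreg and 323 ± 199.9 on day 0, lower in mTO-iTreg (10.96-fold, adjusted p = 0.00056) and in TGFβ-iTreg (8.28-fold, adjusted p = 0.0021) than on day 0. The 4 measured CD8 T or NK cell markers of 5 listed summed to 95.7–130.3 in mTO-iTreg, 175.6–250.9 in TGFβ-iTreg and 330.6–624.5 on day 0. Of these, Klrd1 averaged 3.72 ± 1.06, 77.8 ± 34.9 and 360 ± 139, while Cd8a and Cd8b1 passed in no comparison. The part of such cells in the Ccl5 difference was not tested. Of the 4 Sin3a-binding members, 3 were higher in mTO-iTreg than on day 0, 2 were higher in TGFβ-iTreg than on day 0, and none was lower in either. These shares, 75% and 50% of only 4 genes, stand beside 33.9% and 18.6% of all genes, and nothing is read from them.

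Klf3, a repressor that binds CtBP, was lower in TGFβ-iTreg cells. Klf3 (chromosome 5, 64803388 to 64832901, plus strand) had 368, 453 and 267 normalized counts in mTO-iTreg, 219, 182 and 229.7 in TGFβ-iTreg and 367, 449 and 434 on day 0. The TGFβ-iTreg libraries lay below the 6 others, and mTO-iTreg overlapped day 0. Klf3 was 1.98-fold lower in TGFβ-iTreg than on day 0 (log2 difference -0.98 ± 0.21 SE, limma adjusted p = 0.0052) and 1.73-fold higher in mTO-iTreg than in TGFβ-iTreg (0.76 ± 0.21, adjusted p = 0.016). The last call was lost in 3 of 23 other ways of fitting: without TGFβ-iTreg replicate 2 (adjusted p = 0.063), without mTO-iTreg replicate 2 (0.069) and without the variance trend (0.054). Against day 0 mTO-iTreg cells differed by -0.23 (95% interval -0.67 to 0.22, adjusted p = 0.43).

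Klf12, the other CtBP-binding member, was near the limit of detection. It had 0, 13.03 and 20.6 normalized counts in mTO-iTreg, 0, 0 and 0.494 in TGFβ-iTreg and 8.77, 0 and 0 on day 0, from 52, 1 and 5 counts per group. No comparison passed, and the log2 difference between mTO-iTreg and TGFβ-iTreg was 2.55 (95% interval -0.24 to 5.35, adjusted p = 0.165). The spread among the mTO-iTreg libraries was wide, with 1 of the 3 at 0, and without that library, replicate 1, the log2 difference was 3.93 (adjusted p = 0.037).

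**Figure D2:**
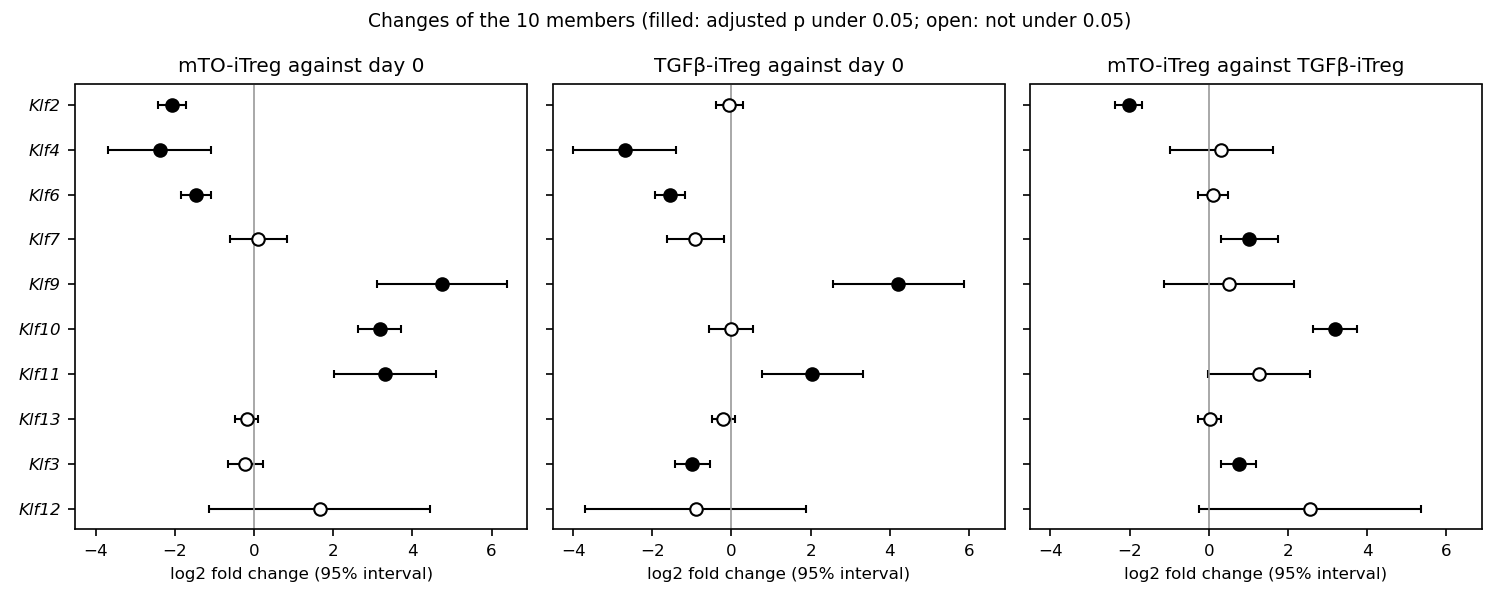
Log2 differences of the 10 members with 95% intervals from the limma fit, with the panels mTO-iTreg against day 0 (left), TGFβ-iTreg against day 0 (middle) and, at the right, mTO-iTreg against TGFβ-iTreg; a value above 0 is higher in the group named first, and filled points have an adjusted p under 0.05. Klf10 stands at 3.17, -0.02 and 3.18 in the 3 panels, and Klf2 at -2.08, -0.05 and -2.03.

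Ratios of 2 members within a library do not depend on how libraries were scaled. For every 100 Klf2 counts there were 62.0, 58.4 and 94.7 Klf10 counts in the mTO-iTreg libraries, 2.67, 1.51 and 1.60 in TGFβ-iTreg and 1.66, 1.79 and 2.03 on day 0. The mTO-iTreg ratios lay far above all others, and TGFβ-iTreg and day 0 overlapped. Against Klf13, which passed in no comparison, Klf2 ran at 84.9, 85.6 and 47.2 per 100 Klf13 counts in mTO-iTreg, 296, 256 and 319 in TGFβ-iTreg and 321, 245 and 221 on day 0. Klf10 ran at 52.7, 49.97 and 44.7 per 100 Klf13 counts in mTO-iTreg, 7.91, 3.88 and 5.10 in TGFβ-iTreg and 5.33, 4.38 and 4.49 on day 0. Both differences of mTO-iTreg are thus present relative to Klf13. Klf13 was level in the scaled values, and Klf10 and Klf2 had already differed in opposite directions in them. The ratios therefore restate those differences and are no independent check of the scaling. Klf6 per 100 Klf13 counts was 61.9, 60.2 and 39.6 in mTO-iTreg, 63.0, 39.9 and 49.4 in TGFβ-iTreg and 134, 108 and 143 on day 0, so both induced groups lay below day 0. Counts of a gene read near its 3′ end depend on the gene, so these ratios compare groups and not the amounts of a pair of proteins.

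**Figure D3:**
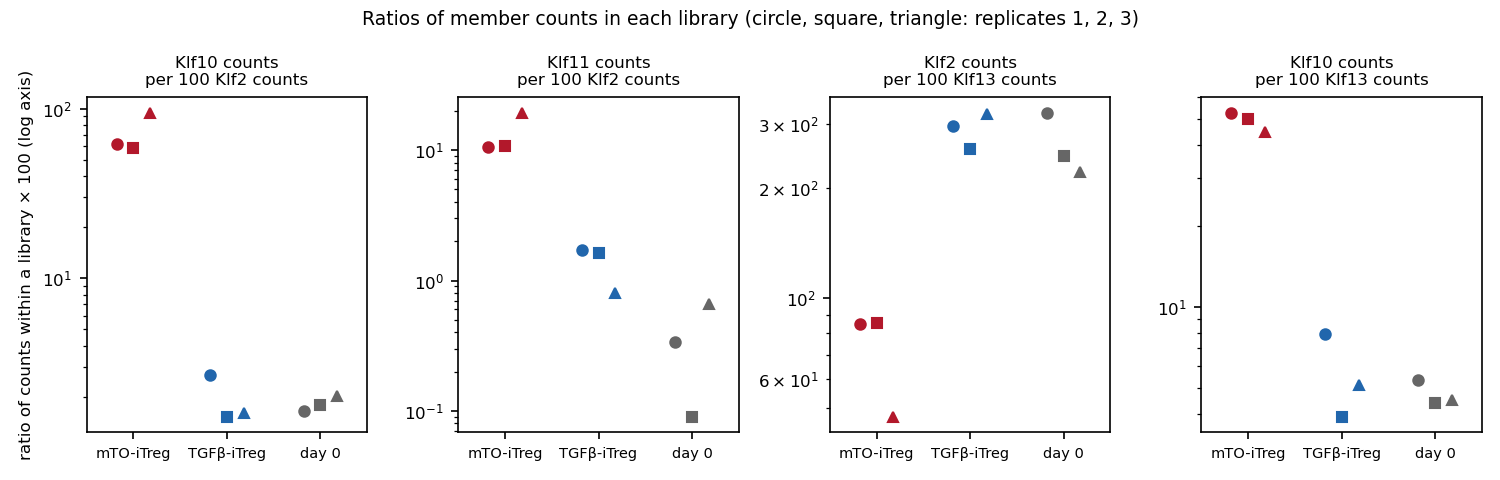
Ratios of counts of 2 members within each library, times 100, on log axes, with mTO-iTreg at the left, TGFβ-iTreg in the middle and day 0 at the right; circles, squares and triangles are replicates 1, 2 and 3. Klf10 per 100 Klf2 counts lies between 58.4 and 94.7 in mTO-iTreg and at or below 2.67 in the 6 other libraries.

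Genes that Klf2 is known to control in mouse T cells were read next. The list holds receptors that Klf2 drives and chemokine receptors that rise when it is lost, and 12 of its 13 genes were tested. In mTO-iTreg against day 0, 7 were lower and 2 higher (median log2 difference -1.51). In TGFβ-iTreg against day 0, 5 were lower and 2 higher (median -0.30), and in mTO-iTreg against TGFβ-iTreg 7 were lower and 3 higher (median -0.64). That is 75%, 58.3% and 83.3% of the 12, where 33.9%, 18.6% and 26.6% of all genes passed. S1pr1, the sphingosine-1-phosphate receptor by which T cells leave lymph nodes and a direct Klf2 target, had 635, 925 and 831 normalized counts in mTO-iTreg, 1436, 1249.9 and 1406 in TGFβ-iTreg and 4089.6, 3355 and 3108 on day 0. The 3 groups did not overlap. S1pr1 was 4.41-fold lower in mTO-iTreg (log2 difference -2.15 ± 0.15 SE, limma adjusted p = 5e-07) and 2.58-fold lower in TGFβ-iTreg (-1.36 ± 0.15, adjusted p = 6e-05) than on day 0, and so it fell in TGFβ-iTreg cells, in which Klf2 did not pass.

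Itgb7, the β7 integrin chain of gut homing, had 249, 290.3 and 255 normalized counts in mTO-iTreg, 1040.4, 947 and 917 in TGFβ-iTreg and 1298, 1175 and 823 on day 0. As for Klf2, the mTO-iTreg libraries lay below the 6 others, with a log2 difference of -2.03 ± 0.17 against day 0 (adjusted p = 1.9e-06) and -1.87 ± 0.17 against TGFβ-iTreg (adjusted p = 6.6e-06). S1pr4, another sphingosine-1-phosphate receptor, averaged 198 ± 44.0 in mTO-iTreg, 706 ± 123.9 in TGFβ-iTreg and 651 ± 43.8 on day 0. Il6ra, the interleukin-6 receptor chain, averaged 34.3 ± 8.85 in mTO-iTreg, 138 ± 17.4 in TGFβ-iTreg and 288 ± 30.2 on day 0. Other homing receptors were higher in mTO-iTreg than in both other groups: Ccr7, which guides cells into lymph nodes, averaged 2532 ± 744 in mTO-iTreg, 1405 ± 161 in TGFβ-iTreg and 1067 ± 26.5 on day 0, and Ccr9, which guides cells to the small intestine, 972 ± 156, 329 ± 92.8 and 118.6 ± 14.3. Cxcr3, a receptor described as rising in Klf2-deficient mouse T cells, was lower in mTO-iTreg, at 32.1 ± 29.7, against 240.2 ± 119.5 in TGFβ-iTreg and 174 ± 76.5 on day 0. Cxcr5, another chemokine receptor of the list, averaged 118 ± 31.8 in mTO-iTreg, 5.57 ± 7.61 in TGFβ-iTreg and 43.0 ± 20.6 on day 0. It was higher in mTO-iTreg than in TGFβ-iTreg (log2 difference 4.96 ± 0.79 SE, limma adjusted p = 0.00049) but did not pass against day 0 (adjusted p = 0.16).

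**Figure D4:**
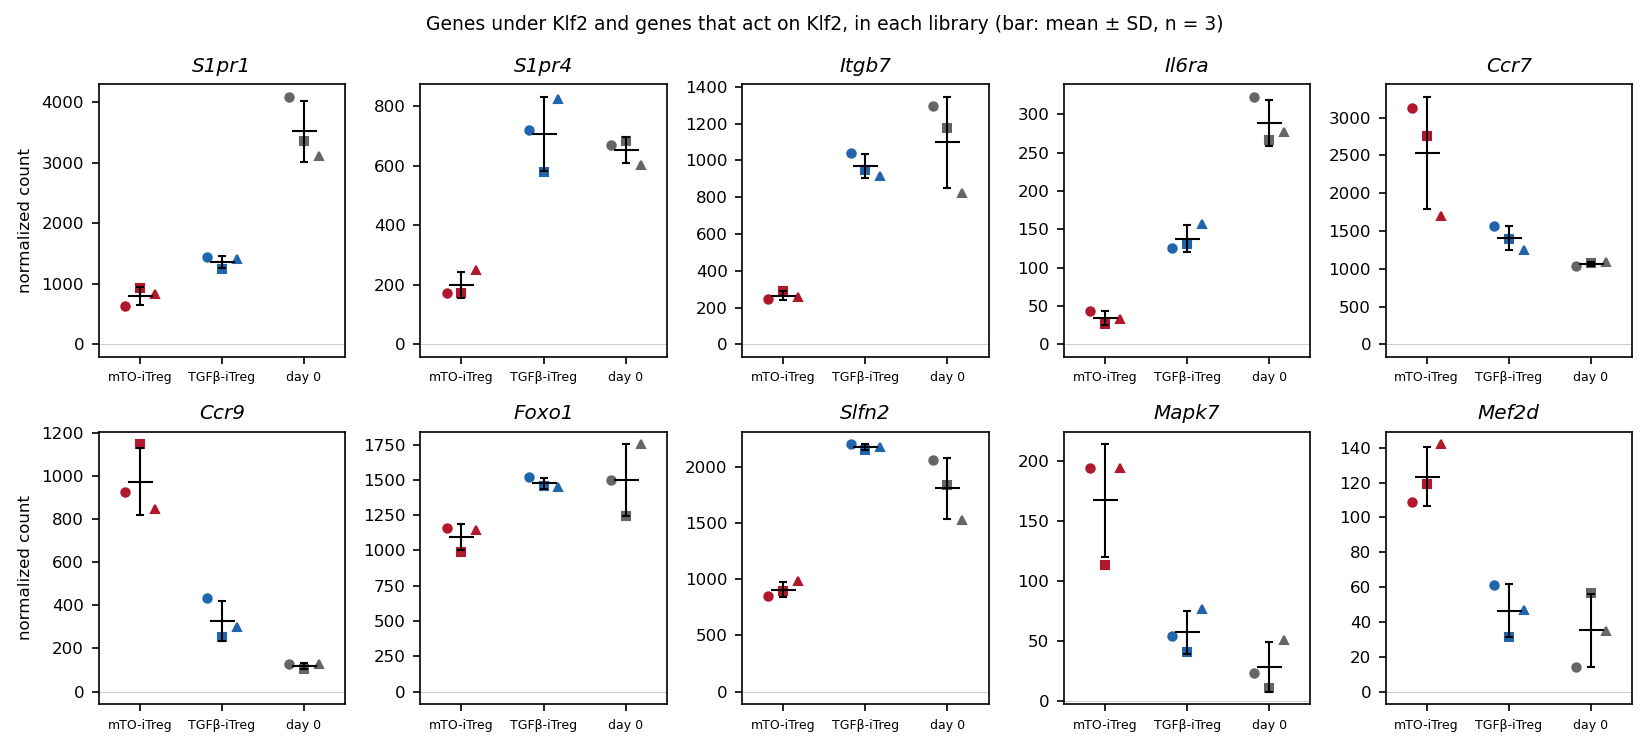
Normalized counts (linear axes) in each library of 10 genes, some controlled by Klf2 and some that control it or hold quiescence, with mTO-iTreg at the left, TGFβ-iTreg in the middle and day 0 at the right; circles, squares and triangles are replicates 1, 2 and 3, and bars the mean ± SD (n = 3). Itgb7 is low in the mTO-iTreg libraries alone (249 to 290.3), S1pr1 is lower in both induced groups than on day 0, and Mapk7 is highest in mTO-iTreg.

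Klf2 transcription in T cells is known to depend on Foxo1 and on the kinase Erk5 (Mapk7) acting through MEF2 factors, and 18 of 19 listed genes of this control and of T cell quiescence were tested. In mTO-iTreg against day 0, 7 were lower and 2 higher, and in mTO-iTreg against TGFβ-iTreg 6 were lower and 2 higher, while in TGFβ-iTreg against day 0 1 was lower and none higher. That is 50%, 44.4% and 5.56% of the 18, where 33.9%, 26.6% and 18.6% of all genes passed, so in TGFβ-iTreg against day 0 the list's share lay below that of all genes. Both that rose in mTO-iTreg, Mapk7 and Mef2d, belong to the Erk5 arm, but Map2k5, Mef2a and Mef2c of that arm passed in no comparison. Mapk7 had 194.4, 113 and 194.0 normalized counts in mTO-iTreg, 54.1, 40.7 and 76.1 in TGFβ-iTreg and 22.8, 10.8 and 50.6 on day 0, 5.95-fold higher in mTO-iTreg than on day 0 (log2 difference 2.74 ± 0.49 SE, limma adjusted p = 0.0008). Mef2d averaged 123 ± 16.9 in mTO-iTreg, against 46.5 ± 15.2 in TGFβ-iTreg and 35.1 ± 21.2 on day 0 (3.52-fold higher than on day 0, adjusted p = 0.0053). Against TGFβ-iTreg, 17 of 23 other ways of fitting kept the call of Mapk7 and 12 that of Mef2d. Over those fits, the list's counts for mTO-iTreg against TGFβ-iTreg ran from 0 to 2 higher and from 2 to 6 lower. Foxo1 averaged 1098 ± 91.8 in mTO-iTreg, 1475 ± 37.1 in TGFβ-iTreg and 1498 ± 256 on day 0, a log2 difference of -0.44 ± 0.14 against day 0 (adjusted p = 0.025). Only 17 of 23 other ways of fitting kept that call (adjusted p up to 0.28), and it was lost with equal library totals, with no variance trend and without day 0 replicate 1, day 0 replicate 3 or mTO-iTreg replicate 2. Among the quiescence genes, Slfn2, whose loss makes mouse T cells lose quiescence, averaged 909.8 ± 67.8 in mTO-iTreg, 2180.5 ± 25.8 in TGFβ-iTreg and 1812 ± 269 on day 0. Btg2 and Tob1, antiproliferative partners of the mRNA deadenylation machinery, averaged 469.5 ± 11.97 and 50.8 ± 4.77 in mTO-iTreg, 909 ± 373 and 114 ± 25.1 in TGFβ-iTreg, and 1308 ± 11.9 and 130.5 ± 34.9 on day 0. All 3 were lower in mTO-iTreg than in either other group. Against TGFβ-iTreg, 22 of 23 other ways of fitting kept the call of Btg2 and 21 that of Tob1. Btg2 is also among the immediate early genes described above. Foxp1, Tob2, Tsc1 and Fbxw7 of the same list passed in no comparison.

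Klf10 and Klf11 were named for their response to TGFβ, and 15 of 16 listed genes of that pathway were tested. In mTO-iTreg against day 0, 5 were higher and 2 lower (median log2 difference -0.24), in TGFβ-iTreg against day 0 5 were higher and 2 lower (median -0.20), and in mTO-iTreg against TGFβ-iTreg 3 were higher and 3 lower (median -0.25). That is 46.7%, 46.7% and 40% of the 15, where 33.9%, 18.6% and 26.6% of all genes passed. Pmepa1, a TGFβ-induced feedback inhibitor, had 285, 465 and 249.8 normalized counts in mTO-iTreg, 674, 745 and 617 in TGFβ-iTreg and 47.4, 64.5 and 85.5 on day 0. It was 5.06-fold higher in mTO-iTreg than on day 0 (adjusted p = 2.1e-05), 10.3-fold higher in TGFβ-iTreg than on day 0 (adjusted p = 6.9e-06), and lower in mTO-iTreg than in TGFβ-iTreg (log2 difference -1.07 ± 0.26 SE, adjusted p = 0.0083). Klf10 did not pass against day 0 in TGFβ-iTreg, the group in which Pmepa1 was highest. Skil, a Smad corepressor that TGFβ induces, averaged 349 ± 113 in mTO-iTreg, 497 ± 29.6 in TGFβ-iTreg and 170.2 ± 53.9 on day 0, and Tgif1, a Smad-binding repressor, 339.7 ± 31.2, 407 ± 72.6 and 116 ± 45.3. Both were higher in each induced group than on day 0 and did not pass between them. Smad7, the inhibitory Smad, averaged 76.3 ± 20.9, 109.7 ± 9.90 and 139 ± 78.0 in the same groups and passed in no comparison.

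Smad3, which transmits the TGFβ signal, was highest in mTO-iTreg, as Klf10 was, with 400.4, 263 and 417 normalized counts in mTO-iTreg, 54.1, 73.9 and 69.7 in TGFβ-iTreg and 139, 148 and 141 on day 0. It was 2.53-fold higher in mTO-iTreg than on day 0 (adjusted p = 0.0011), and 5.47-fold higher in mTO-iTreg than in TGFβ-iTreg (adjusted p = 1.4e-05). Tgfbr2, the receptor chain that binds TGFβ, averaged 334 ± 68.1 in mTO-iTreg, 603 ± 41.5 in TGFβ-iTreg and 1089 ± 153 on day 0. Ndfip1, an adaptor for the ligase Itch, which has been reported to act on Klf10 in mouse T cells, averaged 678 ± 138 in mTO-iTreg, 315 ± 17.8 in TGFβ-iTreg and 205 ± 15.01 on day 0, and Itch averaged 177 ± 33.3, 245 ± 19.3 and 359 ± 66.2. Ndfip1 was higher in mTO-iTreg than in both other groups, and Itch was lower in mTO-iTreg than on day 0 (adjusted p = 0.0019).

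**Figure D5:**
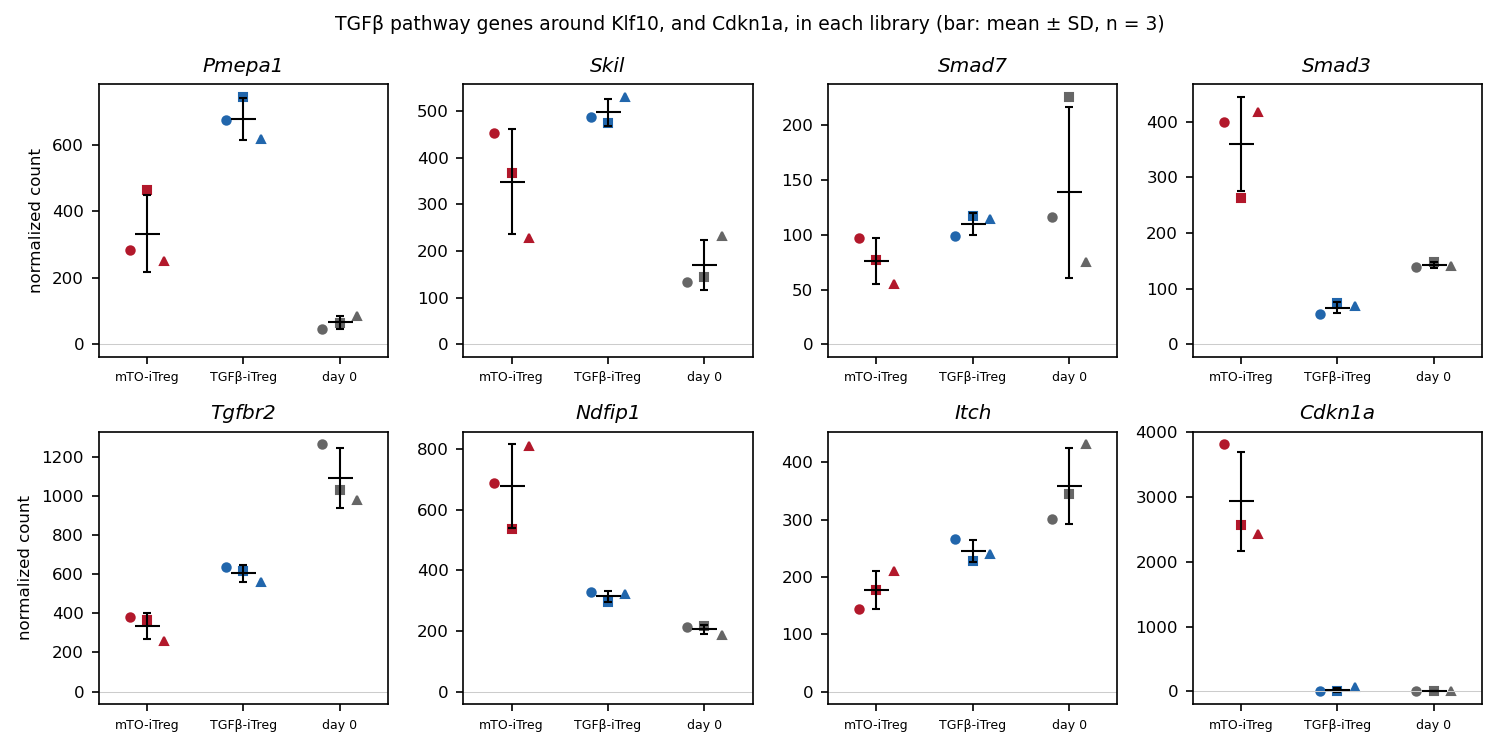
Normalized counts (linear axes) in each library of 7 genes around the TGFβ pathway and of Cdkn1a, with mTO-iTreg at the left, TGFβ-iTreg in the middle and day 0 at the right; circles, squares and triangles are replicates 1, 2 and 3, and bars the mean ± SD (n = 3). Pmepa1 is highest in TGFβ-iTreg (617 to 745), and Smad3 is highest in mTO-iTreg (263 to 417).

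Of the corepressors and acetyltransferases that Klf proteins recruit, 13 of 16 listed were tested, and in mTO-iTreg against day 0 1 was higher and 5 lower, in TGFβ-iTreg against day 0 2 higher and none lower, and in mTO-iTreg against TGFβ-iTreg 1 higher and 3 lower. That is 46.2%, 15.4% and 30.8% of the 13, and the last pair of shares lay near the 18.6% and 26.6% of all genes that passed there, against 33.9% in the first comparison. Sin3a, the scaffold that Klf9, Klf10, Klf11 and Klf13 bind, averaged 249 ± 92.7 in mTO-iTreg, 193 ± 33.1 in TGFβ-iTreg and 191 ± 83.3 on day 0 and passed in none. Ctbp1, a partner of Klf3 and Klf12, averaged 1052 ± 151.5, 1749.7 ± 189 and 1661 ± 127 and was lower in mTO-iTreg than in either other group (log2 difference -0.67 ± 0.14 SE against day 0, adjusted p = 0.0021). The acetyltransferase gene Ep300 averaged 176 ± 15.3 in mTO-iTreg, 427 ± 62.8 in TGFβ-iTreg and 512 ± 86.9 on day 0. Cell cycle genes on which Klf2, Klf4 or Klf6 are known to act, 8 tested, gave 4 higher and none lower in mTO-iTreg against day 0, 3 higher and none lower in TGFβ-iTreg against day 0, and 1 higher and 1 lower between the induced groups. That is 50%, 37.5% and 25% of the 8, where 33.9%, 18.6% and 26.6% of all genes passed. One of them is Cdkn1a, the p21 inhibitor that human and mouse Klf proteins of several branches activate, at 3814, 2559 and 2421 normalized counts in mTO-iTreg, 9.84, 9.49 and 60.3 in TGFβ-iTreg and 0, 5.38 and 11.6 on day 0. It was high in mTO-iTreg alone. Klf4 and Klf6 were lower than on day 0 in both induced groups, while Klf2 was lower and Klf10 higher in mTO-iTreg alone. The part of any member in the Cdkn1a difference was not tested.

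Of the Klf genes outside the 10, Klf16, a Sin3a-binding relative, had 71.6, 58.9 and 53.8 normalized counts in mTO-iTreg, 19.7, 20.3 and 30.1 in TGFβ-iTreg and 19.3, 21.5 and 17.9 on day 0. It was 3.14-fold higher in mTO-iTreg than on day 0 (log2 difference 1.60 ± 0.43 SE, limma adjusted p = 0.011) and 2.63-fold higher than in TGFβ-iTreg (adjusted p = 0.031). Of the 23 other ways of fitting, 13 kept the call against TGFβ-iTreg and the rest ended it (adjusted p up to 0.107), among them the replicate block and leaving out TGFβ-iTreg replicate 1 or 2 or any mTO-iTreg replicate. Klf8 passed in no comparison, and Klf1 and Klf5 were under the filter. Of the related Sp factors, 5 tested, 2 were lower in mTO-iTreg than on day 0, 1 was lower in TGFβ-iTreg than on day 0 and 2 were higher in mTO-iTreg than in TGFβ-iTreg. These shares of 40%, 20% and 40% of so few genes lay close to the 33.9%, 18.6% and 26.6% of all genes, and nothing is read from them.

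Likeness of pattern was measured as the root-mean-square difference of log2 values, each gene centred on its own mean, over the 9 libraries. The members most like each other were Klf3 and Klf7, which differed by 0.457, and the least alike were Klf4 and Klf9, which differed by 3.56. Among all genes with a mean of at least 20, the nearest to Klf2 were Ppia (0.175), Atp6ap1 (0.199) and Actn1 (0.213), and Ppia averaged 1039 ± 80.9 normalized counts in mTO-iTreg, 5020.0 ± 350.1 in TGFβ-iTreg and 5006 ± 220.4 on day 0. Nearest to Klf10 were Samsn1 (0.332), 1810032O08Rik (0.350) and Hint3 (0.383), and Samsn1 averaged 838.5 ± 84.8 in mTO-iTreg, 123 ± 33.2 in TGFβ-iTreg and 116 ± 29.7 on day 0. Nearest to Klf6 were Pag1 (0.184) and Nedd9 (0.196), and nearest to Klf9, at larger distances, Kif22 (0.563) and Ccna2 (0.581). Distances are smaller for genes with more counts, and they are descriptions of these 9 libraries.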

How the data were processed

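Modified CEL-Seq libraries were aligned with BWA to mm10 and normalized with DESeq2, per the submitters' processing notes. For versions, counting tool, annotation, strand handling and molecular identifiers, the sources used here give nothing. The deposited values are normalized counts: the authors' counts divided by a factor per library. Whole reads were recovered from these steps (tolerance 0.1).

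Library columns were joined to the labels by their description codes. Values were tested as log2(value + 1) in limma 3.58.1 (R 4.3.3), moderated with a variance trend, in 1 fit of all 9 libraries, on genes with at least 5 in at least 3 libraries, with Benjamini-Hochberg adjustment over all 10983 genes and a threshold of 0.05. Adding 1 pulls the log2 differences of low genes towards 0. Fold values in the text are ratios of group means, while log2 differences average logs, so for low genes they can differ either way. Against day 0 the log2 differences of Klf9 and Klf11 are larger than their folds give, and those of Klf4 smaller. Intervals are 95% and floors 3 counts, for counting error only. No pairing was used, since the labels do not say what a replicate number shares. Deviations of same-numbered libraries from their group means correlated at -0.05 to 0.06, which cannot exclude pairing with so few libraries. Codes of same-numbered day 0 and TGFβ-iTreg libraries are consecutive, and what this marks is not stated.

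The members and gene lists were chosen with earlier results of these data known. Genes named beside the members come from those lists, from Klf symbols outside the members, or from the 3 nearest genes in pattern with a mean of at least 20. The main test used the normalized values, and limma-voom was run on the recovered reads, but 2 planned count-model tests were not run. The values of 1 listed gene are not reported here. Coordinates are GENCODE M21 on GRCm38, the build named mm10. Genes on the opposite strand overlap Klf3, Klf7, Klf12 and Klf13 there, and their reads could not be told apart if strand was not used. Genes on the same strand overlap Klf3, Klf7 and Klf9, and strand would not separate their reads. Of these only Mir1192, which overlaps Klf9, had a row, with at most 3.32 normalized counts. Python 3.11.15 and matplotlib 3.10.9 made the remaining tables and figures.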

Additional observations from a re-analysis of the deposited data

How the results depend on the processing

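Each member result was recomputed under 23 alternatives: other scalings, filters and pseudocounts, a fit without the variance trend, limma-voom on recovered reads, thinning to the smallest library, 2 groups alone, a replicate block, and leaving out each library or, chosen after seeing the data, both shallowest libraries. Of 15 called results 12 kept their call and direction under all alternatives run, 3 lost it under at least 1 (Klf7 and Klf3 in mTO-iTreg against TGFβ-iTreg, and Klf11 in TGFβ-iTreg against day 0), and none changed sign. Of 15 uncalled results 3 passed under at least 1. The number of members called in mTO-iTreg against TGFβ-iTreg, 4, was 2 without the variance trend and 2 to 5 when a library was left out. In that comparison it was 2 without mTO-iTreg replicate 2 or without TGFβ-iTreg replicate 2, and 5 without day 0 replicate 2, and the cause was not tested. With a replicate block the counts stayed at 6 for mTO-iTreg against day 0, 5 for TGFβ-iTreg against day 0 and 4 for mTO-iTreg against TGFβ-iTreg. Scaling to equal totals moved the median log2 difference of all genes to 0.31 for mTO-iTreg against day 0 and 0.22 for TGFβ-iTreg against day 0. TMM scaling put 45.4% of the calls in mTO-iTreg against TGFβ-iTreg on the higher side, against 55.8% before, and voom 43.5% in TGFβ-iTreg against day 0, against 52.6%. No called gene of the lists changed sign, and 118 of 175 list calls held throughout. edgeR's and DESeq2's count tests were not run. Depth limits Klf9, Klf11 and Klf12 on day 0 most, with 14, 29 and 5 counts.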
